A study of Mus musculus with 24 samples.

Results

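The contractile genes of the dermal sheath were followed in sorted dermal papilla (DP) cells of mice that lack Hdac1 and Hdac2 in the DP. The members were the 8 genes whose symbol in the deposited files is Acta2, Actg2, Myh11, Myl9, Tagln, Cnn1, Lmod1 or Des, of 25755 genes in all. All 8 were found once, and all 8 passed the filter on low values at every age. The members were selected by gene name, and the set was chosen with earlier results of these data known.

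Smooth muscle contracts when myosin filaments pull on thin filaments of actin, after a kinase has phosphorylated the regulatory light chain of the myosin. The dermal sheath is the layer of cells around the hair follicle that is continuous with the DP at the base of the follicle, and it is known for expressing this smooth muscle machinery and for contracting during regression of the follicle. The DP itself is the cluster of mesenchymal cells that signals to the hair matrix. Arrector pili muscle, pericytes and vascular smooth muscle of the skin use the same genes.

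RNA was sequenced from DP cells at P20 (the first telogen), P24 (early anagen), P28 (mid anagen) and P60 (the second telogen), with 3 control and 3 mutant libraries per age and 24 in all. The mutant, dM1/2, carries Cor-cre and is homozygous for floxed alleles of both Hdac1 and Hdac2. Controls share the Cre and have floxed Hdac1, floxed Hdac2 or a combination of them, in part homozygous for 1 of the genes. The labels do not assign these control genotypes to single libraries. Cor-cre is active in the DP only after birth, and the cells were sorted by a YFP reporter that it switches on, so cells in which it was not active were selected against in both genotypes. Libraries of P20 came from females and those of P24 and P28 from males, while the study used both sexes at P60, so that sex and stage cannot be told apart here. Values are read counts divided by a size factor per library, called normalized reads.

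Reads on genes ranged from 8171944 to 13369732 per library in telogen and from 35469841 to 49331751 in anagen. The 14 DP markers summed to between 26728 and 410602 normalized reads per library, with none at 0. At P60, markers of other fibroblasts summed to more, 71731 to 92611 in controls and 73720 to 168457 in dM1/2. The DP sum thus does not show what share of a library came from DP cells. Hdac1 fell at P24, with a log2 fold change of -2.01 (standard error (SE) 0.22, adjusted p = 0.00167, limma). It was not called at P20 (-0.72, adjusted p = 0.122) or P60 (-0.25, adjusted p = 0.986, limma). Reads of Hdac2, counted over the whole gene and not over the floxed exons alone, were not lower past the threshold at any age, with log2 fold changes of -0.01 at P20, 0.27 at P24, 0.16 at P28 and 0.08 in P60 libraries. At P28, the Hdac1 change of -0.58 did not pass (limma, adjusted p = 0.454), and the library labelled P28 control 3, at 104.7 normalized reads, lay below all 3 dM1/2 libraries, which held 125.7 to 190.2.

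Myl9, which encodes the regulatory light chain of smooth muscle myosin, was the only member called between the genotypes, and it was lower in dM1/2 in both stages of anagen. At P24, 1 of the 8 members was called (adjusted p under 0.05, limma on log2(normalized reads + 1)), against 26.6% of all genes tested. At P28, it was again 1 of 8, against 35.5% of all genes. At P20, none was called by limma, edgeR or DESeq2, against 0.433% of all genes by limma, and 2 members had an unadjusted p under 0.05. At P60, none was called by any of these tools, and limma called 0% of all genes. No member had an unadjusted p under 0.05 there. With only 8 members, a count of 1 does not set them apart from all genes, of which a large part differed in anagen.

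Most differences of the members had the same sign without passing the test. The log2 fold change was negative for 8 of 8 members at P20, P24 and P60 and for 6 of 8 at P28. Its median over the 8 members was -0.30 at P20, -0.60 at P24, -0.34 in mid anagen and -0.58 at P60, while the median over all genes tested lay between -0.01 and 0.02. Single libraries carried much of this. Without P20 dM1/2 1 the median at P20 was -0.03 and 6 of 8 were negative, and without P60 dM1/2 1 the median at P60 was -0.27. Leaving out P24 dM1/2 2 gave -0.37 at P24, and leaving out P28 dM1/2 1 gave -0.05 at P28, with 4 of 8 negative. In the other direction, the median was -1.02 without P24 control 3 and -1.11 without P28 control 3. In bulk RNA, fewer cells that express a gene and less RNA per cell cannot be told apart.

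**Figure D1:**
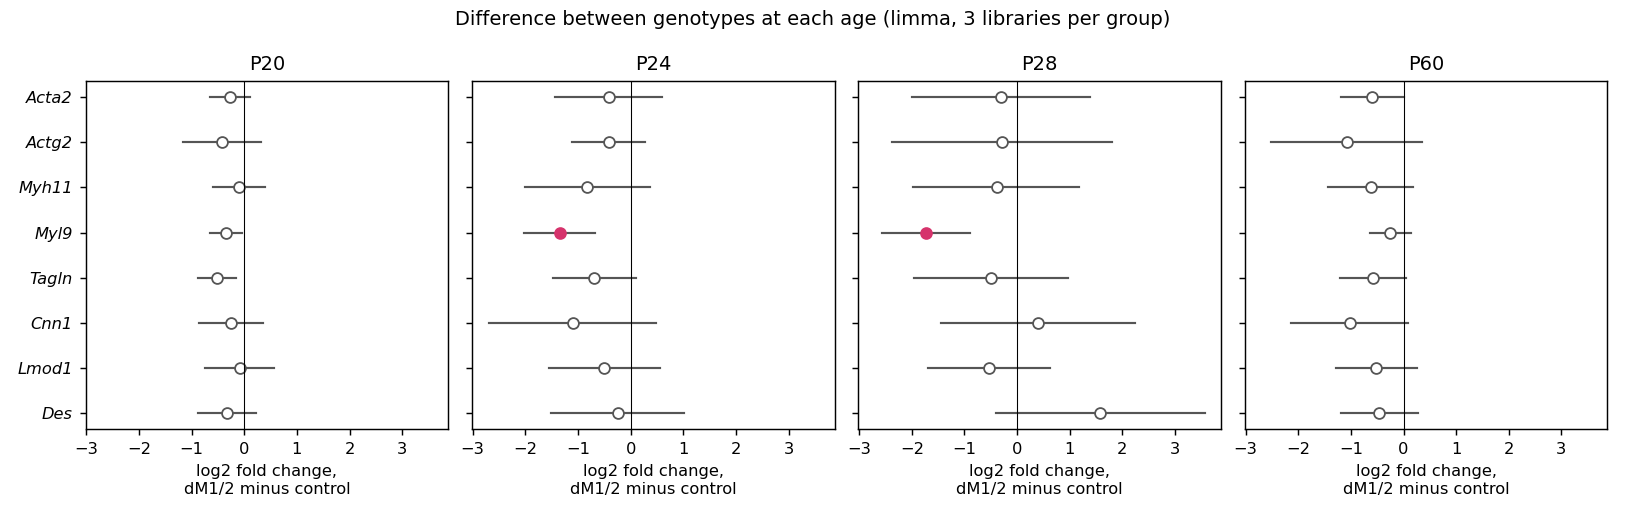
Log2 fold change between dM1/2 and control (x axis) of each of the 8 contractile genes (y axis) at each age, with its 95% confidence interval from limma, for 3 libraries per group. Filled points passed an adjusted p under 0.05. Only Myl9 at P24 (-1.35) and at P28 (-1.73) did, and the intervals of the other members all cover 0 at P24 and P28.

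Myl9 (ENSMUSG00000067818, chr2:156775420-156781658, plus strand, GRCm38) is the member on which the genotype comparison turned. Its product is the light chain whose phosphorylation starts contraction, and it also belongs to the myosin of nonmuscle cells. The RefSeq promoter windows of GRCm38.p6, from 250 bases before to 50 bases after the start of the transcript, are shown for Myl9, for Acta2, the best known marker of contractile cells, and for Des, the member with the smallest p over the ages in controls. Capitals mark a CArG box, the element bound by serum response factor, or a form of it in which 1 inner base is G or C. The windows are chr2:156775214-156775513 (plus strand), chr19:34255324-34255623 (minus strand) and chr1:75360042-75360341 (plus strand).
Myl9: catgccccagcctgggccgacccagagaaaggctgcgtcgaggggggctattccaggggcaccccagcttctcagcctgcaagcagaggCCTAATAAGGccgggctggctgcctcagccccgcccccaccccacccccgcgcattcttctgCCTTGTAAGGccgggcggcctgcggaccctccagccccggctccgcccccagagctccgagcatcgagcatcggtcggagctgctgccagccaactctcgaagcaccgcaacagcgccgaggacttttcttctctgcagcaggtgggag
Acta2: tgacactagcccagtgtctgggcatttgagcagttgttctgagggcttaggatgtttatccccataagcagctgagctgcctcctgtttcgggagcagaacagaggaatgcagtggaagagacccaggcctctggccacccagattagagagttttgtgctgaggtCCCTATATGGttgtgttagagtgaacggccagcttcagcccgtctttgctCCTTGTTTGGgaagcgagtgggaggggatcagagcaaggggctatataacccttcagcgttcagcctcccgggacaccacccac
Des: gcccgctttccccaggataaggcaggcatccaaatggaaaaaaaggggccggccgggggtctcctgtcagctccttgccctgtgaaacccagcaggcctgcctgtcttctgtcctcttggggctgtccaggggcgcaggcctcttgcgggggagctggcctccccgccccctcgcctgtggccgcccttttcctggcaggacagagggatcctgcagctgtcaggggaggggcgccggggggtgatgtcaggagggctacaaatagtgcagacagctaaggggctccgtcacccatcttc

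The window of Myl9 held a CArG box 161 to 152 bases before the start and the looser form 99 to 90 bases before it. Acta2 held only looser forms, at 84 to 75 and at 34 to 25 bases before the start. No match of either form was found in the windows of Des, Cnn1 and Lmod1. Of 32851 promoter windows of this length, 1.63% held a CArG box and 9.98% held it or the looser form, on either strand. The letters CATTCC of the MCAT element, searched on both strands, were in the windows of Acta2 and Lmod1 and in 14.7% of all windows. The table of promoters used matched 5 of the 8 members, and Myh11, Tagln and Actg2 were not in it.

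At P24, the control libraries held 2254, 2417 and 1119 normalized reads of Myl9 and the dM1/2 libraries 686, 624 and 855. Every dM1/2 library lay below every control, including P24 control 3, which was the lowest of its group. The log2 fold change was -1.35 (SE 0.29, 95% confidence interval -2.03 to -0.67, adjusted p = 0.0142, limma). The call was lost by a small margin without P24 dM1/2 2, where it was -1.25 (adjusted p = 0.0508, limma), and held in the other 12 of 13 alternatives.

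The difference of Myl9 was also found at P28. Controls held 2786, 2032 and 3051 normalized reads and dM1/2 464, 826 and 1223. Again no dM1/2 library reached the lowest control. The mean was 2623 ± 529 (SD, n = 3) in controls and 837.8 ± 380 in dM1/2, a log2 fold change of -1.73 (SE 0.35, 95% confidence interval -2.56 to -0.90, adjusted p = 0.00948, limma). It was called in all 13 alternatives, with log2 fold changes from -2.06 to -1.36.

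In telogen, Myl9 differed less. At P20, controls held 1422, 1602 and 1933 normalized reads and dM1/2 1173, 1346 and 1359, which did not overlap, and the log2 fold change was -0.35 (SE 0.14, adjusted p = 0.207, limma). At P60, the values were 1532, 1447 and 1439 in controls and 1308, 1001 and 1454 in dM1/2, and the log2 fold change was -0.25 (SE 0.17, adjusted p = 0.986, limma). The groups overlapped at that age. The difference between stages was tested directly over the 24 libraries, as the mean genotype effect in anagen minus that in telogen. For Myl9 it was -1.25 (SE 0.29, 95% confidence interval -1.85 to -0.65, adjusted p = 0.00292, limma). It was called in all 31 alternatives, and Myl9 was the only 1 of the 8 members called in this contrast, against 30.2% of all genes. Des had the largest value of the opposite sign, 1.05 (SE 0.64, adjusted p = 0.23, limma), and the other 6 members lay between -0.25 and 0.40. Sex and depth moved with stage, and their part in this contrast was not tested.

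**Figure D2:**
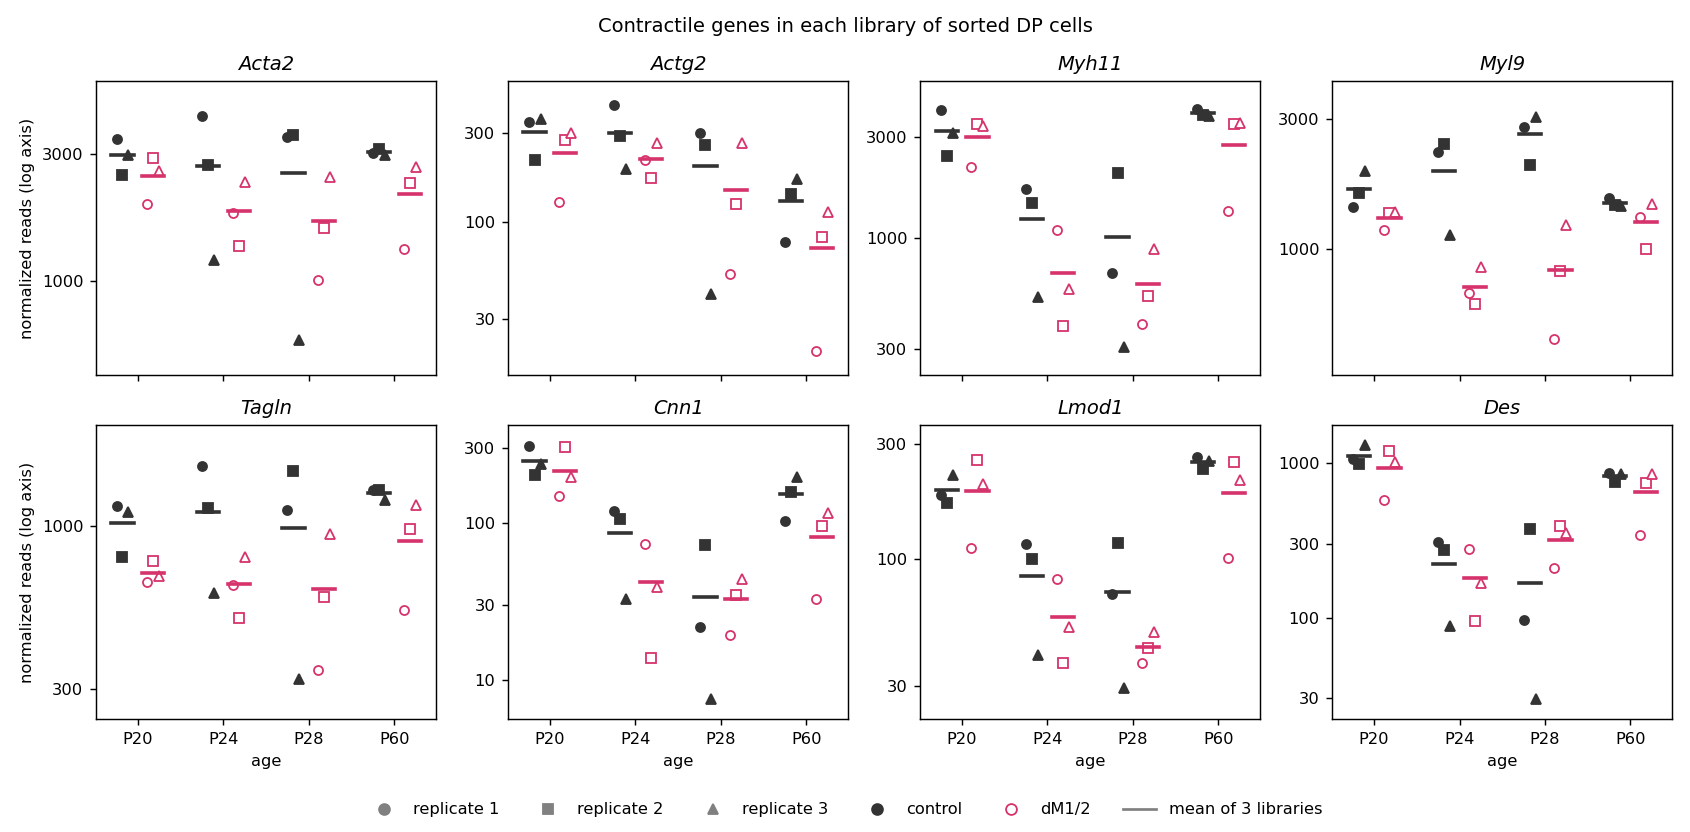
Normalized reads (y axis, log scale, a different range in each panel) of each contractile gene in the 24 libraries, by age (x axis), with controls filled and dM1/2 open, symbols for the replicate number and lines at the mean of 3 libraries. Myl9 separates the genotypes at P24 and P28, while in the other panels the libraries P24 control 3 and P28 control 3 lie among or below the dM1/2 libraries.

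Acta2 (ENSMUSG00000035783, chr19:34241090-34255590, minus strand) encodes the smooth muscle alpha actin of the thin filament. At P20, controls held 3434, 2513 and 2969 normalized reads and dM1/2 1940, 2899 and 2597. At P24, controls held 4202, 2728 and 1194 and dM1/2 1798, 1349 and 2367. The groups overlapped at both ages, and the P24 controls spread 3.52-fold from lowest to highest. At P28, controls held 3476, 3554 and 594 and dM1/2 1007, 1583 and 2452, so that 2 controls lay above all dM1/2 libraries and the third below all of them. The log2 fold change was -0.42 at P24 (SE 0.43, adjusted p = 0.52, limma) and -0.30 at P28 (SE 0.72, adjusted p = 0.777, limma). At P60, controls held 3033, 3132 and 2979 and dM1/2 1310, 2346 and 2695. All 3 dM1/2 libraries lay below the controls there, with a log2 fold change of -0.59 (SE 0.26, adjusted p = 0.986, limma).

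Actg2 (ENSMUSG00000059430, chr6:83512905-83536265, minus strand) encodes the gamma actin of smooth muscle. Its protein is nearly identical to other actins. Single-end reads of 50 bases could be shared between Actg2 and Acta2 where their transcripts match. This was not tested, and both values are uncertain to that extent. Controls at P24 held 424, 291 and 192 normalized reads and dM1/2 215, 172 and 264. At P28, the values were 301, 260 and 41 in controls and 52, 125 and 267 in dM1/2. The groups overlapped at both ages, and so they did at P20, with 343, 214 and 356 in controls against 127, 277 and 300. At P60, controls held 78, 141 and 171 and dM1/2 20, 83 and 113, a log2 fold change of -1.08 (SE 0.62, adjusted p = 0.986, limma).

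Myh11 (ENSMUSG00000018830, chr16:14194535-14291372, minus strand) encodes the heavy chain of smooth muscle myosin, the motor itself. At P24, controls held 1703, 1468 and 524 normalized reads and dM1/2 1087, 385 and 572. At P28, controls held 685, 2028 and 304 and dM1/2 394, 532 and 891. The groups overlapped, with log2 fold changes of -0.82 (SE 0.51, adjusted p = 0.278, limma) and -0.39 (SE 0.66, adjusted p = 0.688, limma). In telogen the level was higher. P20 controls held 4050, 2432 and 3152 and dM1/2 2176, 3457 and 3385. P60 controls held 4091, 3804 and 3788 and dM1/2 1336, 3450 and 3497, where all dM1/2 libraries were below the controls but 2 of them by a small distance.

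Tagln (ENSMUSG00000032085, chr9:45929619-45936058, minus strand) encodes transgelin, an actin-binding protein of smooth muscle. Its exons share 108 bases with Pcsk7 and 1241 bases with the antisense gene Gm48529, both on the opposite strand. Gm48529 is not among the genes with values here. The strand setting of the counting is not given in the sources used here, and the part of such reads in Tagln was not tested. At P20, controls held 1157, 795 and 1110 normalized reads and dM1/2 662, 772 and 694. The groups did not overlap, and the log2 fold change of -0.51 (SE 0.16, adjusted p = 0.134, limma) did not pass the threshold. At P24, controls held 1563, 1148 and 609 and dM1/2 646, 507 and 799. At P28, controls held 1130, 1500 and 323 and dM1/2 344, 593 and 944. In both stages of anagen the third control lay below at least 1 dM1/2 library. At P60, controls held 1306, 1311 and 1213 and dM1/2 538, 978 and 1172, without overlap and with a log2 fold change of -0.58 (SE 0.27, adjusted p = 0.986, limma).

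Cnn1 (ENSMUSG00000001349, chr9:22099216-22109630, plus strand) encodes calponin, which binds actin and restrains the myosin ATPase. It was the member with the fewest reads in mid anagen. At P28, controls held 22, 72 and 8 normalized reads and dM1/2 19, 35 and 44. At P24, the values were 119, 105 and 33 in controls and 73, 14 and 39 in dM1/2. The groups overlapped at both ages, and the log2 fold change at P28 was 0.39 with limma (adjusted p = 0.731) but -0.01 with edgeR (adjusted p = 0.991), so that no direction can be given. In telogen, controls held 308, 200 and 235 at P20 and 103, 157 and 194 at P60, and dM1/2 held 148, 301 and 194 at P20 and 33, 96 and 115 at P60.

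Lmod1 (ENSMUSG00000048096, chr1:135324807-135368065, plus strand) encodes leiomodin, which nucleates actin filaments in smooth muscle. Controls held 115, 100 and 40 normalized reads at P24 and 72, 117 and 30 at P28. The dM1/2 libraries held 83, 37 and 53 at P24 and 38, 43 and 50 at P28. At each of these ages the lowest control lay below at least 2 dM1/2 libraries. In telogen, controls held 185, 170 and 224 at P20 and 264, 236 and 254 at P60, against 111, 257 and 205 and 101, 251 and 212 in dM1/2, with overlap at both ages.

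Des (ENSMUSG00000026208, chr1:75360329-75368579, plus strand) encodes desmin, the intermediate filament of muscle, and shares 220 bases of exons with an antisense gene. At P28, controls held 97, 374 and 30 normalized reads and dM1/2 210, 395 and 355. This is the 1 member with a log2 fold change well above 0 in mid anagen, 1.58 (SE 0.83, 95% confidence interval -0.40 to 3.56, adjusted p = 0.187, limma), and its groups overlapped. Without P28 control 2 it was 2.50 (adjusted p = 0.0114, limma), and without P28 control 3 it was 0.70 (adjusted p = 0.324, limma). At P24, controls held 309, 273 and 89 and dM1/2 278, 95 and 167, which overlapped throughout. Telogen values were higher. Controls held 1074, 990 and 1311 at P20 and 873, 760 and 858 at P60, and dM1/2 held 578, 1197 and 1025 at P20 and 346, 744 and 854 at P60.

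Counted by overlap, all dM1/2 libraries lay below all controls for 2 of the 8 members at P20 (Myl9 and Tagln), against 13.3% of all genes. The count was 1 at P24 (Myl9), against 21% of all genes, and 1 at P28 (Myl9), against 23.3%. At P60 it was 3 (Acta2, Myh11 and Tagln), against 4.08% of all genes. Each of these 3 had its lowest value in P60 dM1/2 1, and without that library their log2 fold changes were -0.28, -0.16 and -0.25, none of them called by limma.

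The members moved together between libraries of 1 group, and a few libraries stood apart. At P24, all 8 members had their lowest control value in P24 control 3, where 42.1% of all genes tested had theirs. At P28, 7 of 8 had their lowest control value in P28 control 3, against 35% of all genes, and Myl9 had its highest there. In dM1/2, all 8 members were lowest in library 1 at P20, in library 2 at P24 and in library 1 at P28, and 7 of 8 in library 1 at P60, where between 34.9% and 45.7% of all genes were lowest.

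Markers of other cells differed between the same libraries. P24 control 3 and P28 control 3 had the highest summed DP markers of their groups, 410602 and 387640 normalized reads, where the other 2 controls of each age held between 152079 and 346815. They also had the lowest summed markers of other fibroblasts, 7100 and 5776, where the other controls of these ages held between 14098 and 59315. Pericyte and vascular smooth muscle markers were lowest there too, at 7743 and 5726, against 8003 to 11541 in the other controls. In telogen, P60 dM1/2 1 had the lowest DP sum (26728) and the highest sum of other fibroblast markers (168457) among the 24 libraries. The part of these markers in the levels of the members was not tested.

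Without P24 control 3, 4 members were called lower at P24 by limma. Besides Myl9, these were Acta2 (log2 fold change -0.92, adjusted p = 0.0394), Myh11 (-1.35, adjusted p = 0.0346) and Tagln (-1.07, adjusted p = 0.0113). Leaving out P28 control 3 likewise gave 4 calls at P28. These were Myl9, Acta2 (-1.16, adjusted p = 0.0236), Tagln (-1.17, adjusted p = 0.0386) and Lmod1 (-1.07, adjusted p = 0.028). Each of these fits compared 2 controls with 3 dM1/2 libraries. Without P28 control 2 instead, 2 members were called at P28, Myl9 and Des, the latter higher in dM1/2 (2.50, adjusted p = 0.0114). Which members other than Myl9 passed the threshold thus depended on single control libraries. The share of all genes called in these fits is not given here. With all libraries it was 26.6% at P24 and 35.5% at P28. The counts of members called therefore do not set them apart from all genes.

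**Figure D3:**
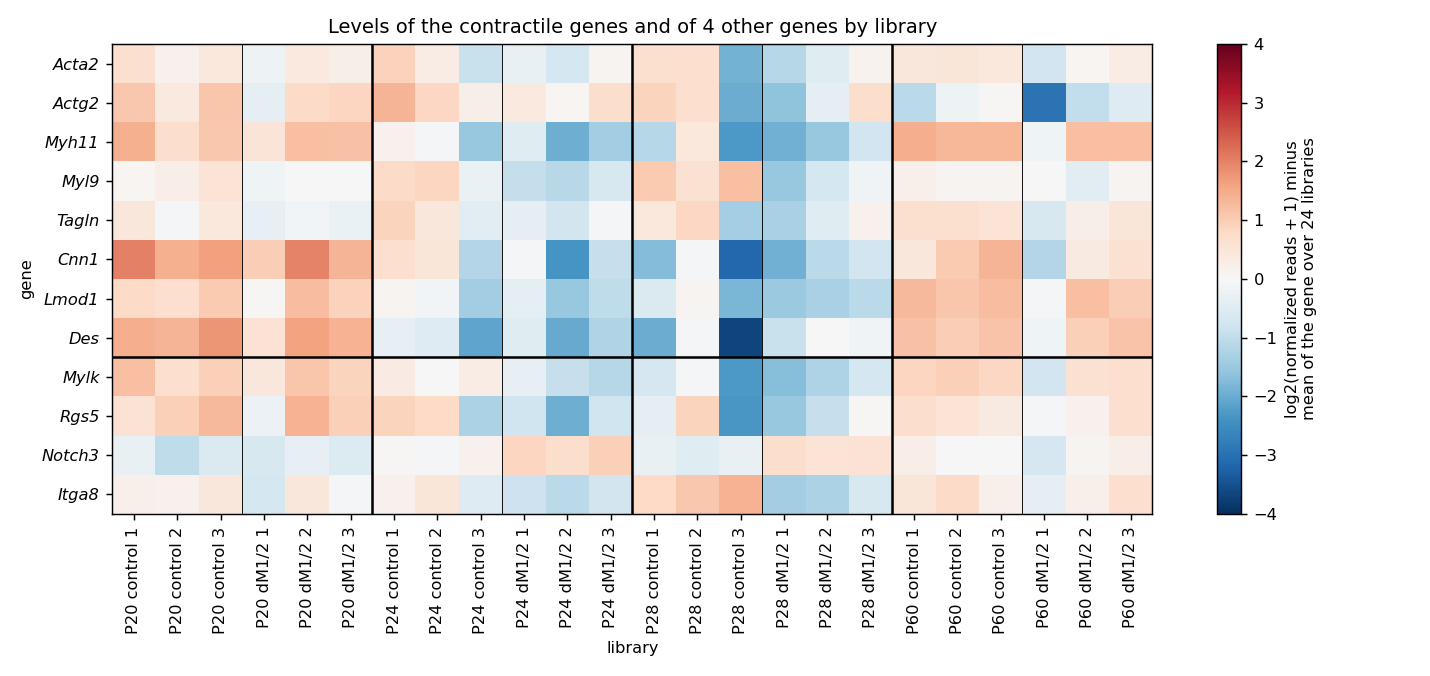
Log2(normalized reads + 1) minus the mean of the gene over the 24 libraries (colour), for the 8 contractile genes and for Mylk, Rgs5, Notch3 and Itga8 (rows), in each library (columns). P24 control 3 and P28 control 3 are blue for nearly all contractile genes, for Rgs5 and, at P28, for Mylk. Myl9 and Itga8 are red in P28 control 3.

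An F test of limma compared the levels over the 4 ages among the 12 controls. Des (adjusted p = 0.00692), Cnn1 (adjusted p = 0.0102), Lmod1 (adjusted p = 0.0116) and Myh11 (adjusted p = 0.0151) varied with age, 4 of the 8 members against 49% of all genes. These 4 were higher in telogen than in anagen. Myh11 had a mean of 3211 ± 810 normalized reads (SD, n = 3) at P20, 1232 ± 624 in early anagen, 1006 ± 906 in mid anagen and 3894 ± 171 at P60. Des had 1125 ± 166, 223.3 ± 118, 166.7 ± 183 and 830.4 ± 61.2 at the same ages. For Cnn1 the lowest telogen control held 103 normalized reads and the highest anagen control 119, so its stages touched, while Des, Lmod1 and Myh11 did not overlap between stages.

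The actins and Tagln did not follow that course. Acta2 had means of 2972 ± 460, 2708 ± 1504, 2541 ± 1687 and 3048 ± 77.5 normalized reads at the 4 ages (adjusted p = 0.726, limma), and Tagln lay between 984.5 and 1276 (adjusted p = 0.675, limma). Myl9 was highest in mid anagen, with 1652 ± 259, 1930 ± 707, 2623 ± 529 and 1473 ± 51.9 (SD, n = 3 each), and did not pass (adjusted p = 0.0824, limma). It passed with DESeq2 (adjusted p = 0.0317) and, with limma, without P24 control 3 (adjusted p = 0.00911). Actg2 passed without P28 control 3 (adjusted p = 0.0249, limma), against an adjusted p of 0.216 with it. With both of these libraries left out, a setting chosen after seeing the data, 6 of the 8 members were called. That fit called 6102 genes in all, where the fit with all controls called 6886. Age cannot be told apart from sex and depth in this comparison. Marker sums of other cells also moved with age in controls. Pericyte and vascular smooth muscle markers summed to 13995 to 16868 at P20, 7743 to 10945 at P24, 5726 to 11541 at P28 and 15848 to 16342 at P60. Other fibroblast markers summed to 46009 to 74387, 7100 to 32032, 5776 to 59315 and 71731 to 92611 at these ages. The part of such cells in the levels over age was not tested.

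Between the 2 telogens, 1 of the 8 members was called in controls, against 12.6% of all genes. Actg2 fell from P20 to P60 by 1.26 on the log2 scale (SE 0.31, adjusted p = 0.0296, limma), from 304.1 ± 78.5 to 129.6 ± 47.4 normalized reads (SD, n = 3), without overlap of the libraries. The call was lost without P20 control 1, P20 control 3, P60 control 1 or P60 control 2, with adjusted p from 0.0533 to 0.123 (limma). It was also lost with a replicate block (adjusted p = 0.0578, limma) and with 1 fit over 24 libraries (adjusted p = 0.234, limma), and held with edgeR and DESeq2. Cnn1 and Des were also lower at P60, by log2 fold changes of -0.73 (adjusted p = 0.0986, limma) and -0.43 (adjusted p = 0.0814, limma), which did not pass.

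From P24 to P28, no member was called in controls, where limma called 1.46% of all genes, nor in dM1/2, where it called 2.67%. Neither edgeR nor DESeq2 called a member in these comparisons. At an unadjusted p under 0.05 there was none in controls and 1, Des, in dM1/2. Des rose in dM1/2 from 180.1 ± 92.3 to 319.9 ± 97.4 normalized reads, a log2 difference of 0.91 (SE 0.38) that did not pass after adjustment (adjusted p = 0.274, limma). In controls, Cnn1 had the largest difference, -1.64 (SE 0.86, adjusted p = 0.376, limma), and Myl9 was the only member with a positive one, 0.50 (SE 0.32, adjusted p = 0.471, limma). The difference of these changes between the genotypes called none of the 8 members with limma, edgeR or DESeq2, and none had an unadjusted p under 0.05, against 0.707% of all genes called by limma. Its largest value was that of Des, 1.83 (SE 1.11, adjusted p = 0.583, limma).

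Levels can be compared between the genes only per length of exon. Per kb of exon, Myl9 and Acta2 were the most abundant members in controls at every age. At P28, Myl9 had 2257 ± 455 normalized reads per kb (SD, n = 3) and Acta2 1157 ± 768, followed by Tagln with 495.2 ± 303. Myh11 (132.3 ± 119) and Actg2 (128.9 ± 90) came next and differed by less than their spread. Des (44.41 ± 48.6), Lmod1 (18.49 ± 11.1) and Cnn1 (12.31 ± 12.3) were lowest and also lay within their spread of each other. At P60, Acta2 (1388 ± 35.3) stood above Myl9 (1267 ± 44.7), Tagln (642 ± 27.8) and Myh11 (512.5 ± 22.4), each step larger than the sum of the SDs. Des (221.2 ± 16.3), Actg2 (83.26 ± 30.5), Lmod1 (63.66 ± 3.65) and Cnn1 (55.29 ± 16.7) followed. Des stood above Actg2 by more than their spread, while Actg2 and Lmod1, and Lmod1 and Cnn1, did not differ beyond theirs.

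Outside the 8 members, the genes whose log2 levels followed the members most closely over the 24 libraries were Rgs5 (Pearson r = 0.942 with the mean z-score of the 8 members), Ramp1 (0.906), Synpo2 (0.887), Ccdc42 (0.885) and Mylk (0.884), of 14235 genes. These correlations are descriptions over libraries that share age, sex and genotype. Rgs5, a regulator of G protein signalling known from pericytes, held 2985, 2751 and 660.9 normalized reads in P24 controls and 1238, 2975 and 314.4 in P28 controls. It was thus low in the same control libraries as the members. In dM1/2 it held 928.3, 412.5 and 915.8 at P24 and 562.5, 842.5 and 1649 at P28, and it was not called at either age. Mylk, the kinase that phosphorylates the regulatory light chain, held 3151, 2477 and 3103 in P24 controls and 2003, 1330 and 1142 in dM1/2. It fell at P24 by 1.0 on the log2 scale (SE 0.22, adjusted p = 0.0145, limma) and had a log2 fold change of -0.20 at P28 (SE 0.56, adjusted p = 0.814, limma), where P28 control 3 held 504.4.

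The other genes of the contractile machinery were taken from 4 lists. None of their genes was called at P20 or at P60 by limma, against 0.433% and 0% of all genes. Of all genes tested, limma called 26.6% at P24 and 35.5% at P28, which stands beside the counts of every list. The lists were not tested against these shares. Among thin filament and adhesion partners, 3 of the 27 tested rose and 5 fell at P28, with a median log2 fold change of -0.30. Tagln3 rose by 3.20 (adjusted p = 0.00137, limma) and Tagln2 by 1.50 (adjusted p = 0.0264, limma), while their relative Tagln had -0.50 (adjusted p = 0.57, limma). Cald1, which encodes caldesmon, an inhibitor of the myosin ATPase on actin, fell by 1.45 on the log2 scale (adjusted p = 0.00325, limma), and Lpp, of focal adhesions, fell by 1.26 (adjusted p = 0.00307, limma). At P24, 1 rose (Tagln2) and 4 fell, which were Cald1, Tpm1, Tln1 and Vcl. The last 3 were named after their values were seen.

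Among 6 other myosin subunits tested at P28, none rose and 3 fell, with a median of -0.34. Myl4, an essential light chain of atrial and embryonic muscle, fell by 1.41 on the log2 scale (adjusted p = 0.0211, limma), at levels of 35.27 to 46.11 normalized reads in controls. Myh9, the heavy chain of nonmuscle myosin, fell by 0.54 (adjusted p = 0.0446, limma). At P24, 1 of 7 rose, Myh10 with 0.46 (adjusted p = 0.0374, limma), which was named after its values were seen, and none fell.

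Genes that control contraction moved in both directions, 2 of 21 rising and 5 falling at P28, with a median of -0.29. Kcnmb1, a subunit of a potassium channel of smooth muscle, rose by 2.38 (adjusted p = 0.0233, limma), from 2.275 to 16.01 normalized reads in controls to 35.82 to 45.77 in dM1/2. With a control mean of 8.705 it passed the filter on low values only through dM1/2, so its place in this count rests on the group where it is high. Rock2, a kinase that keeps the light chain phosphorylated, fell by 1.15 on the log2 scale (adjusted p = 0.000718, limma), and Itpr1, the calcium channel of the endoplasmic reticulum, fell by 0.97 (adjusted p = 0.032, limma). At P24, 1 of the 21 rose and 2 fell.

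Of 20 genes for transcription of contractile genes, 3 rose and 5 fell at P28, with a median of -0.29. Tgfb1, a ligand that induces the contractile programme in fibroblasts, rose by 1.29 (adjusted p = 0.00145, limma), and Srf, the factor that binds the CArG box, rose by 0.63 (adjusted p = 0.0201, limma). Fhl1, an adaptor protein of muscle, fell by 1.26 on the log2 scale (adjusted p = 0.0254, limma), and Tgfb2 fell by 0.99 (adjusted p = 0.01, limma). At P24, 1 rose and 2 fell. Over these lists the median log2 fold changes at P28 lay within -0.34 to -0.29, beside -0.34 for the 8 members and 0.00 for all genes.

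**Figure D4:**
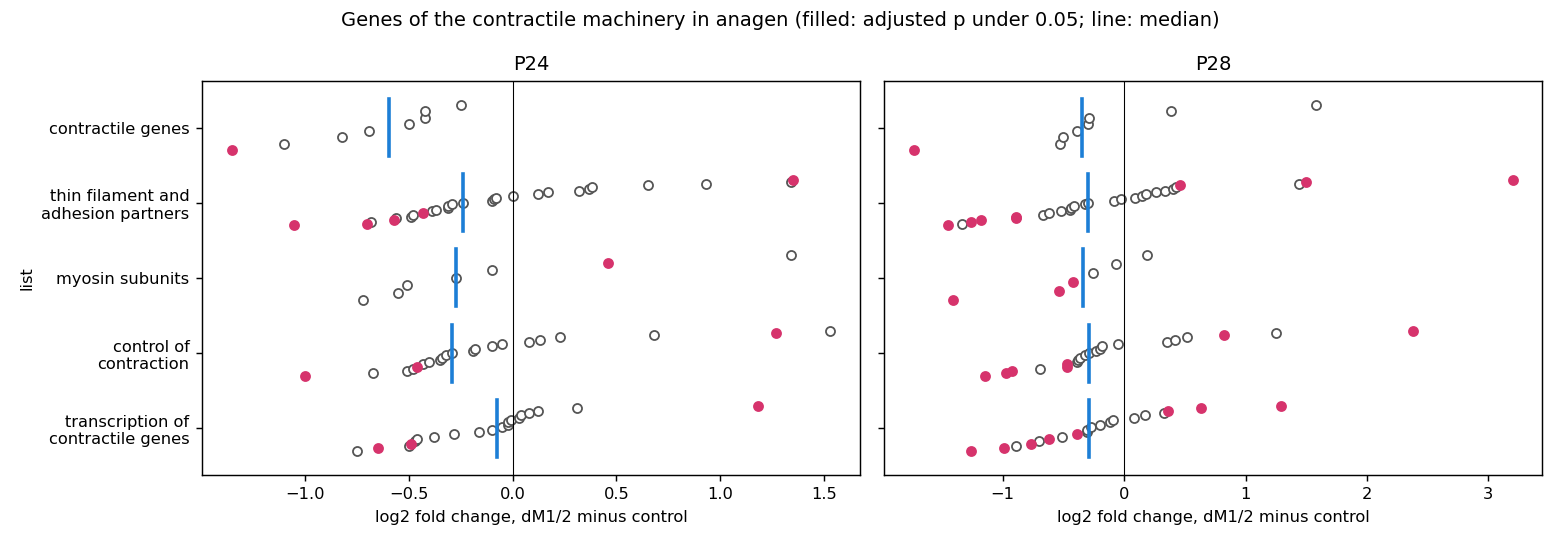
Log2 fold change between dM1/2 and control (x axis) at P24 and P28 of the 8 contractile genes and of 4 lists of the contractile machinery (y axis), 1 point per gene. Filled points passed an adjusted p under 0.05 in limma, and lines mark the median of each list. Each list except the myosin subunits holds called genes on both sides of 0 at both ages. Called myosin subunits are only a rise at P24 (Myh10) and only falls at P28. The median of each list and of the contractile genes lies below 0 at both ages.

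Markers of the cell types that share these genes did not all move with the members. Beside their counts, limma called 0.433% of all genes at P20, 26.6% at P24 and 35.5% at P28. Of 7 dermal sheath markers outside the 8 members, 1 fell at P20 (Emid1), 2 fell at P24 (Mylk and Col11a1, the latter named after its values were seen) and 1, Emid1, rose at P28 by 0.52 on the log2 scale (adjusted p = 0.0475, limma). Their summed level was 19588 to 20255 normalized reads in P24 controls against 11588 to 14442 in dM1/2, and 8390 to 13815 against 7021 to 11138 at P28. Col11a1 was the largest part of the sum, with means of 13380 in P24 controls and 7916 in P24 dM1/2, followed by Mylk with 2910 and 1492. Emid1 and Egfl6, the latter named after its values were seen, had higher means in dM1/2 at P24, and the other markers lower ones. Of 10 pericyte and vascular smooth muscle markers tested at P28, 3 rose and none fell, with sums of 5726 to 11541 in controls and 10713 to 13334 in dM1/2. Mcam rose by 2.42 (adjusted p = 0.0254, limma) and Notch3 by 0.96 (adjusted p = 0.00159, limma), while Myl9 fell in the same libraries. Notch3 and Cspg4 were the largest parts of the sum in dM1/2, with means of 4504 and 3524. The markers not called lay on both sides of 0 and are named after their values were seen. Mustn1 (-0.22), Rgs5 (-0.19), Kcnj8 (-0.18), Ndufa4l2 (-0.03) and Rergl (-0.02) were negative, and Rgs4 (0.78) and Abcc9 (0.53) positive. Itga8, an integrin known from arrector pili muscle, fell by 0.92 on the log2 scale at P24 (adjusted p = 0.0315, limma) and by 2.18 at P28 (adjusted p = 0.00103, limma). Its P28 controls held 1361, 1639 and 2030 normalized reads and dM1/2 297.2, 324.8 and 501.4, so that P28 control 3 was the highest library, as for Myl9.

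Among the DP markers themselves, 1 of 14 rose and 8 fell at P24, and 2 rose and 6 fell at P28. Of all genes, 26.6% were called in either direction at P24 and 35.5% at P28. Corin, the gene whose promoter drives the Cre, fell by 3.33 on the log2 scale at P28 (adjusted p = 0.000836, limma). Of 12 skeletal muscle markers, Actn3 rose at P28, from a mean of 40.8 to 228.4 normalized reads (log2 fold change 2.55, adjusted p = 0.00264, limma). Mylpf had means of 4.493 and 40.26, so that it passed the filter on low values only through dM1/2. The other 10 were below that filter at P28 and are named after their values were seen. Tnnt3, Myh1, Tnni2, Myh2 and Pvalb had lower means in dM1/2, and Ckm, Acta1, Myh4, Tnnc2 and Atp2a1 higher ones. The sum over the 12 genes, most of it Actn3, was 63 to 96 normalized reads in P28 controls and 275 to 353 in dM1/2, with up to 5 of them at 0 in a library. None of the other fibroblast, immune or melanocyte markers was called by limma at any age. At P28, 1 keratinocyte marker rose (Dsp), 1 Schwann cell marker fell (Cdh19) and no endothelial marker was called, and at P24, Cdh19 fell, 1 keratinocyte marker that passed the filter only through controls fell, and endothelial markers had 1 call in each direction. Summed levels of the keratinocyte, endothelial, immune, Schwann cell and melanocyte markers stayed at or below 1585 normalized reads in each library. The part of these cells in the levels of the members was not tested.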

How the data were processed

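Total RNA of FACS-sorted DP cells was sequenced from 3 control and 3 dM1/2 libraries at each of 4 ages. Directional libraries were made by the authors after depletion of ribosomal RNA. The authors trimmed 50-base single-end reads (Trimmomatic), mapped them on mm10 (Tophat 2), counted reads per gene (HTSeq, Ensembl GRCm38.p4) and normalized the counts with DESeq2. Its version and the strand setting are not given in the sources used here. The deposited signal per gene is a read count over the size factor of its library, with all 24 libraries scaled together. The files also hold log2 fold changes and p-values of the authors, which were not used. Dividing by the smallest step of each library recovered whole reads for 100% of the values (tolerance 1e-06).

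Genes averaging 10 or more normalized reads in a fit were tested with limma 3.58.1 on log2(normalized reads + 1) (R 4.3.3, trend, two-sided, Benjamini-Hochberg adjustment over all genes tested, threshold 0.05). Fold changes on this scale understate changes of low genes. On the recovered reads, edgeR 4.0.16 (TMM, quasi-likelihood) called 3746 genes at P24 and 4918 at P28, and DESeq2 1.42.0 called 4704 and 5828, where limma called 3735 and 5018. Other alternatives were a pseudocount of 10, no filter, limma on log2-CPM with TMM, 1 fit over 24 libraries, a replicate block, each library left out in turn and, chosen after seeing the data, both P24 control 3 and P28 control 3 left out. Scripts were tested on simulated data. No pair of replicates agreed within counting noise, and p-values measure the spread between these libraries.

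The members and lists were chosen with earlier results of these data known. Named were all members, the targeted genes, up to 2 largest rises and 2 largest falls of each list among genes called at P28, and the 5 genes most correlated with the members. Of the genes that this rule names, 1 is not reported here. Lists covered thin filament and adhesion partners, myosin subunits, control of contraction, transcription of contractile genes and markers of DP, dermal sheath, pericytes and vascular smooth muscle, arrector pili muscle, skeletal muscle, keratinocytes, endothelial cells, melanocytes, immune cells, Schwann cells and other fibroblasts. Gene coordinates are those of GRCm38 (GENCODE), and promoters are from RefSeq. Mylk, Acta1 and Sox10 each stand in more than 1 list.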

Additional observations from a re-analysis of the deposited data

Results flagged for a closer look

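The effect of the genotype on Myl9 differed between anagen and telogen by -1.25 on the log2 scale (SE 0.29, adjusted p = 0.00292, limma), which was a test of the difference itself. Myl9 was lower in 3 of 3 dM1/2 libraries than in every control at P24, at P28 and at P20, and groups overlapped at P60. Sex and depth cannot be told apart from stage in this contrast.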

How the results depend on the processing

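Of 1304 values of single members under the alternatives, 1201 kept their direction and their side of the threshold, 7 lost a call, 14 gained one and 82 changed sign. No value that passed the threshold changed sign. Scaling by TMM moved the median of all genes by at most 0.03. The number of members called at P24 was between 0 and 4 with each library left out, against 1, and at P28 between 1 and 4. It was 0 to 1 for P60 minus P20 in controls, where it was also 0 with 1 fit over 24 libraries (Actg2, adjusted p = 0.234, limma), and 1 to 2 for the genotype effect in anagen minus telogen, where Des was added without P28 control 2. The causes were not tested.

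Signs changed mainly for differences near 0. With edgeR, the log2 fold change was 0.01 for Lmod1 at P20 and -0.01 for Cnn1 at P28, with DESeq2 0.00 and -0.07. For the difference of the P24 to P28 changes, Acta2 had -0.08 with edgeR and -0.07 with DESeq2, and Actg2 -0.00 with edgeR. For the genotype effect in anagen minus telogen, Acta2 had -0.16 and -0.19. Without both P24 control 3 and P28 control 3, chosen after seeing the data, Acta2 had 0.05 from P24 to P28 in controls. The difference of changes was then -0.24 for Acta2, -0.49 for Actg2, 0.09 for Myl9 and -0.10 for Tagln, and the anagen minus telogen effect -0.61 for Acta2, -0.20 for Actg2 and -0.38 for Cnn1. None of these passed the threshold.

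With each library left out in turn, a change of sign occurred for the following members, given as the lowest to the highest log2 value. Between genotypes, the ranges were Lmod1 -0.34 to 0.26, Myh11 -0.28 to 0.12 at P20, Des -0.82 to 0.14 at P24 and Acta2 -1.16 to 0.13, Actg2 -1.21 to 0.31, Cnn1 -0.35 to 1.19, Myh11 -1.04 to 0.32 at P28. From P24 to P28 they were Acta2 -0.80 to 0.56, Lmod1 -0.76 to 0.24, Myh11 -1.26 to 0.11, Tagln -0.77 to 0.34 in controls and Acta2 -0.50 to 0.14, Cnn1 -0.77 to 0.39, Myh11 -0.46 to 0.29, Myl9 -0.21 to 0.49, Tagln -0.50 to 0.23 in dM1/2. For the difference of these changes between the genotypes they were Acta2 -0.74 to 0.62, Actg2 -0.78 to 0.73, Lmod1 -0.57 to 0.43, Myh11 -0.23 to 1.14, Tagln -0.48 to 0.62. For P60 minus P20 in controls the range was Acta2 -0.07 to 0.16. For the genotype effect in anagen minus telogen they were Acta2 -0.36 to 0.29, Actg2 -0.06 to 0.70, Cnn1 -0.09 to 0.68, Lmod1 -0.48 to 0.01, Myh11 -0.57 to 0.11, Tagln -0.38 to 0.17.

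Samples of the groups share replicate numbers. The correlation of same-numbered libraries after subtracting group means exceeded 0.1 for every pair in no comparison. It was positive for every pair at P20 (0.23, 0.08 and 0.12) and at P60 (0.34, 0.02 and 0.17), and of mixed sign in the others. The labels do not say whether a number marks a pair, and so few correlations cannot decide it. A replicate block moved the genes called from 60 to 439 at P20, from 3735 to 2366 at P24, from 0 to 6 at P60, from 204 to 27 for P28 minus P24 in controls, from 100 to 0 for the difference of changes and from 1746 to 923 for P60 minus P20 in controls. There it left 0 members called (Actg2, adjusted p = 0.0578, limma) and changed no other call of a member. DESeq2 called more genes than limma by over 1.5 times at P20 (668), at P60 (26), for P28 minus P24 in controls (1494) and dM1/2 (1127) and for the difference of changes (595). With 1 fit over 24 libraries the counts were 21 at P20, 16 at P60, 1328 for P28 minus P24 in controls and 96 in dM1/2. At log2(normalized reads + 10) the difference of changes had 151 and P60 had 1. Without both low controls, P28 minus P24 in controls had 12 and the difference of changes 57. Counting error limits Actg2 (8 reads) and Cnn1 (13 reads) in P60 dM1/2 1 most.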
